A study of Saccharomyces cerevisiae with 11 samples.

Results

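The 10 budding yeast genes described here encode the core enzymes that make and break down trehalose and glycogen. They were *TPS1*, *TPS2*, *TSL1*, *NTH1*, *ATH1*, *GSY1*, *GSY2*, *GLC3*, *GPH1* and *GDB1*, chosen by name for their function and found through the gene symbols of the array's annotation. Earlier results of these data were known when they were chosen. Each had 1 probe set, and together they were 10 of the 5449 *S. cerevisiae* genes tested. The arrays held total RNA of mid-log cultures grown at 30°C in a rich glucose medium, with 3 arrays of *rna15-1*, 3 of *rna14-1* and 5 of wild type. Rna14 and Rna15 are subunits of cleavage factor I, which acts in cleavage, polyadenylation and transcription termination of mRNAs. The mutants carried the *rna15-1* or the *rna14-1* allele, and the wild type was W303-1B. By the labels all strains were MATa and carried the marker alleles *trp1-1*, *his3-11,15*, *ade2-1* and *ura3-1* and the *leu2* double mutation usual in W303 strains. Each mutant is thus represented by 1 allele, and the labels call its replicates biological without saying how they were grown apart, so p-values measure the spread between these arrays.

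Trehalose is a disaccharide of glucose that protects proteins and membranes under stress, and glycogen is a branched glucose polymer used as a reserve. Both are made from glucose phosphates by way of UDP-glucose, and yeast builds up both as glucose runs out or under stress. Transcription of many of these genes is known to be induced through stress response elements and held down by protein kinase A. The trehalose synthase complex consists of Tps1, which makes trehalose-6-phosphate, Tps2, which removes the phosphate, and the regulatory subunits Tsl1 and Tps3. Nth1 is the neutral trehalase of the cytosol and Ath1 the acid trehalase. Gsy1 and Gsy2 are the glycogen synthases, Glc3 adds the branches, Gph1 is glycogen phosphorylase, and Gdb1 is the debranching enzyme.

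Values were log2 intensities, so a difference of 1 is a doubling of signal. The members' probe sets lay between 8.39 and 12.05 on all arrays, and 98.7% to 99.7% of tested genes lay above the array background of 4.19 to 4.44. Arrays fell into subsets within 2 of the strains. Wild-type replicates 1 and 2 correlated at 0.994 with each other and at 0.981 to 0.989 with replicates 3 to 5, and *rna15-1* replicate 3 correlated at 0.964 to 0.965 with the other *rna15-1* arrays, against 0.997 between those. The probe sets of 4 alpha-specific genes, which MATa cells normally keep silent, read 12.96 to 14.21 in *rna15-1*, 11.42 to 13.47 in *rna14-1* and 12.02 to 13.45 in wild type, which goes against the labelled mating type. Those of 6 a-specific genes read 8.55 to 12.19 in *rna15-1*, 8.31 to 12.27 in *rna14-1* and 5.79 to 8.30 in wild type, and all 6 rose in both mutants. The part of these differences in the results below was not tested.

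The comparison of *rna14-1* with wild type asked how the members' transcripts differed between these strains. Of the 10 members, 8 rose in *rna14-1*, none fell, and 2 did not pass (here and below, rose or fell means a limma Benjamini-Hochberg adjusted p under 0.01 over all genes). Among all genes 32.8% rose and 29.5% fell. The members' median log2 change was 1.09, against 0.00 for all genes. In 9 of the 10, every *rna14-1* array lay above every wild-type array, as did 37.7% of all genes, and in none did every array lie below, as did 36.1%.

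The largest changes were in glycogen synthase. *GSY1* had log2 intensities of 11.22, 10.95 and 11.35 in *rna14-1*, against 9.73, 9.69, 8.45, 8.75 and 8.39 in wild type. The groups did not overlap, and wild-type replicates 1 and 2 were the nearest to the mutant. The difference was 2.17 ± 0.33 (SE, log2), or 4.50-fold (limma adjusted p = 0.00015). *GSY2*, which encodes the predominant isoform, had 11.17, 11.20 and 11.48 in *rna14-1* and 9.82, 9.81, 9.24, 9.22 and 9.09 in wild type. Again no array overlapped, and *GSY2* was 3.59-fold higher, by 1.85 ± 0.24 (limma adjusted p = 4e-05). The branching enzyme gene *GLC3* had 10.29, 10.33 and 10.63 in *rna14-1* and 10.19, 10.004, 9.64, 9.58 and 9.55 in wild type. All mutant arrays were above wild type, but the change of 0.62 did not pass (95% CI 0.11 to 1.14, limma adjusted p = 0.032).

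Both genes of glycogen breakdown rose. *GDB1* had 11.73, 11.69 and 11.79 in *rna14-1* and 10.13, 10.20, 9.84, 9.87 and 9.99 in wild type. These groups were far apart for their spread, with a 3.32-fold difference of 1.73 ± 0.13 (limma adjusted p = 1.1e-06). *GPH1* had 9.71, 10.71 and 10.64 in *rna14-1* and 9.35, 9.11, 8.85, 8.89 and 9.05 in wild type. Replicate 1 of *rna14-1* was well below the other two, though still above wild type, and the 2.46-fold difference of 1.30 ± 0.21 passed (limma adjusted p = 2e-04).

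Trehalose breakdown genes rose too. *ATH1* read 9.77, 9.83 and 9.87 in *rna14-1* and 8.81, 8.52, 8.55, 8.40 and 8.45 in wild type. The *rna14-1* arrays lay close together and clear of wild type, at 2.42-fold or 1.28 ± 0.14 (limma adjusted p = 1.3e-05). *NTH1* read 11.52, 11.75 and 11.82 in *rna14-1* and 11.12, 11.04, 10.57, 10.56 and 10.66 in wild type. It was 1.87-fold higher without overlap, by 0.91 ± 0.14 (limma adjusted p = 0.00015).

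The synthase complex changed less. *TSL1* read 10.97, 10.69 and 10.94 in *rna14-1* and 10.42, 10.44, 9.73, 9.65 and 9.68 in wild type, a 1.84-fold rise of 0.88 ± 0.22 (limma adjusted p = 0.004). *TPS1* read 11.85, 12.05 and 11.91 in *rna14-1* and 11.72, 11.72, 11.09, 11.16 and 11.12 in wild type, a 1.49-fold rise of 0.57 ± 0.16 (limma adjusted p = 0.0083). For both genes, wild-type replicates 1 and 2 lay only just below the lowest *rna14-1* array. The call of *TPS1* was lost in 8 of the 11 fits that left out 1 array (limma adjusted p up to 0.037). *TPS2* was the member whose groups overlapped, with 10.71, 10.73 and 10.91 in *rna14-1* and 11.03, 10.86, 10.28, 10.26 and 10.31 in wild type. Its change was 0.24 (95% CI -0.18 to 0.65, limma adjusted p = 0.28).

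The study's methods set further thresholds, namely a log-odds B above 2, an average above 7 and a change over 2-fold. By these, 3 members (*ATH1*, *GSY2* and *GDB1*) were called up in *rna14-1*, as were 10.1% of all genes, and none was called down, as were 7.96%. *GSY1* and *GPH1* were over 2-fold, but their B was 1.60 and 1.21.

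**Figure D1:**
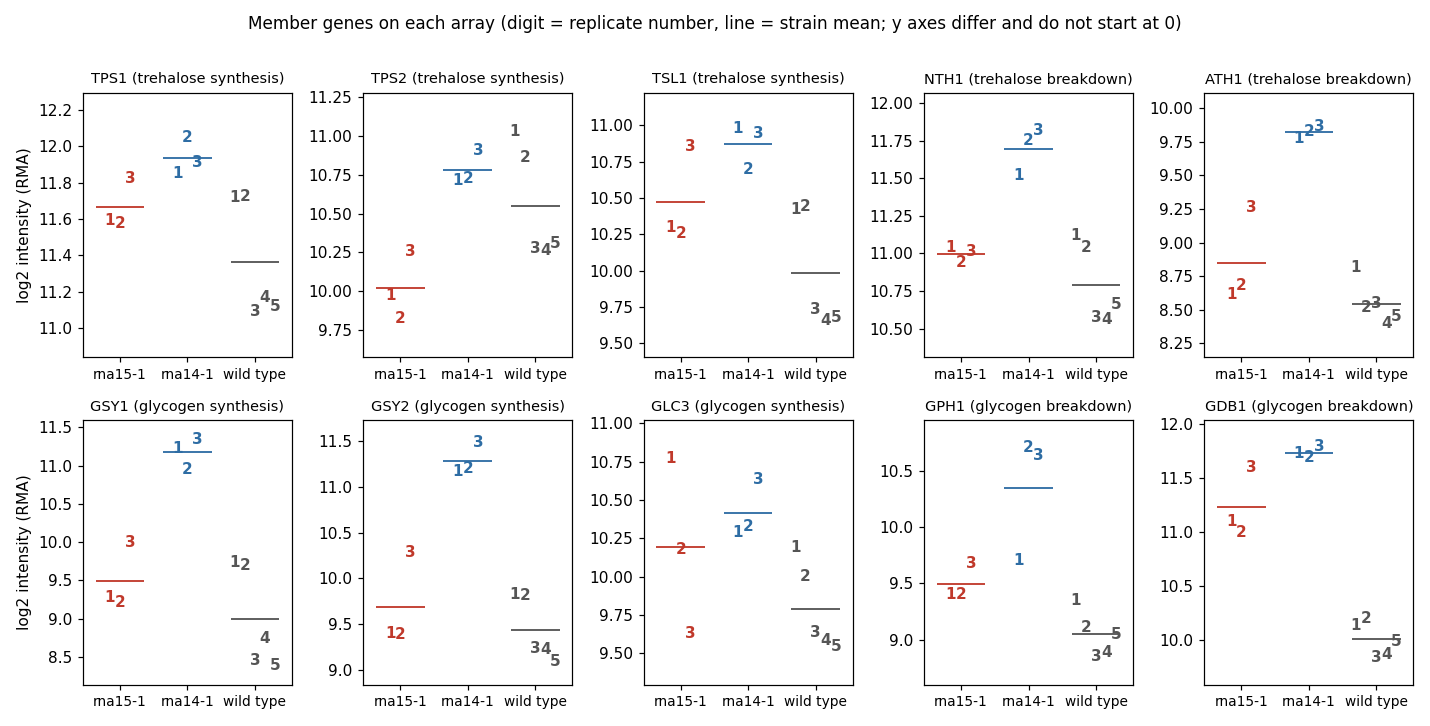
Log2 intensity of each member on all 11 arrays, 1 point per array, with *rna15-1*, *rna14-1* and wild type from left to right and a bar at each strain's mean. *GSY1* and *GSY2* reach 10.95 to 11.48 in *rna14-1*, above all arrays of the other strains, and wild-type replicates 1 and 2 lie above replicates 3 to 5 in every panel but that of *ATH1*.

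In *rna15-1*, 1 member rose against wild type and none fell, where 28.2% of all genes rose and 24.7% fell. The member was *GDB1*, with 11.10, 10.99 and 11.60 in *rna15-1* and 10.13, 10.20, 9.84, 9.87 and 9.99 in wild type. Every *rna15-1* array lay above wild type, and the difference was 2.34-fold or 1.22 ± 0.13 (limma adjusted p = 1.8e-05). *GDB1* was also the 1 member called up by the methods' thresholds, as were 6.53% of all genes, and none was called down, as were 5.32%. The members' median change was 0.35, against 0.03 for all genes. Because both mutants were set against the same 5 wild-type arrays, the comparisons are not independent.

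Of the other members, 2 had groups that did not overlap and yet did not pass. *GPH1* had 9.40, 9.40 and 9.68 in *rna15-1* and 8.85 to 9.35 in wild type, a difference of 0.44 (95% CI -0.02 to 0.91, limma adjusted p = 0.083). *TPS2* had 9.97, 9.82 and 10.26 in *rna15-1* and 10.26 to 11.03 in wild type, a difference of -0.53 (95% CI -0.95 to -0.11, limma adjusted p = 0.029). Counting *GDB1*, groups without overlap were thus found for 2 members with *rna15-1* higher, as for 32.6% of all genes, and 1 with it lower, as for 29.1%.

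The glycogen synthase genes of *rna15-1* lay within the wild-type range on most arrays. *GSY1* had 9.28, 9.21 and 9.99 in *rna15-1*, against 8.39 to 9.73 in wild type, with a difference of 0.49 (95% CI -0.25 to 1.23, limma adjusted p = 0.22). *GSY2* had 9.39, 9.38 and 10.29 in *rna15-1*, against 9.09 to 9.82 in wild type, with a difference of 0.25 (95% CI -0.28 to 0.78, limma adjusted p = 0.38). In each gene only replicate 3 was above all wild-type arrays. Changes of *TPS1*, *TSL1*, *NTH1*, *ATH1* and *GLC3* were between 0.21 and 0.48, with limma adjusted p from 0.075 to 0.21.

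Setting *rna15-1* against *rna14-1* tested directly whether the mutants differed. Of the members, 4 fell and none rose, where 16.5% of all genes fell and 16% rose. All 4 encode a glycogen synthase or a trehalase. *GSY1* was lower by 1.68 ± 0.37 and *GSY2* by 1.60 ± 0.27 on the log2 scale in *rna15-1* (limma adjusted p = 0.004 and 0.00078). *ATH1*, with 8.61, 8.68 and 9.26 in *rna15-1* against 9.77, 9.83 and 9.87 in *rna14-1*, was lower by 0.97 ± 0.16 (limma adjusted p = 7e-04). *NTH1*, with 11.04, 10.94 and 11.02 in *rna15-1* against 11.52, 11.75 and 11.82 in *rna14-1*, was lower by 0.70 ± 0.16 (limma adjusted p = 0.0041). The calls of *NTH1* and *GSY1* were each lost in 4 of the 11 fits that left out 1 array (limma adjusted p up to 0.02 and 0.019).

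Differences of *TPS2*, *GPH1* and *GDB1* were -0.77, -0.86 and -0.51, with limma adjusted p of 0.012, 0.012 and 0.017, and did not pass. Those of *TSL1*, *TPS1* and *GLC3* were -0.40, -0.27 and -0.22, with limma adjusted p of 0.2, 0.24 and 0.5. No member was called up or down here by the methods' thresholds, as were 2.02% and 2.88% of all genes. In 8 of the 10 members every *rna15-1* array lay below every *rna14-1* array, as in 29.1% of all genes, and in none did all lie above, as in 29.5%. The exceptions were *TSL1*, where *rna15-1* replicate 3 at 10.86 exceeded the lowest *rna14-1* array, and *GLC3*, where replicate 1 at 10.77 exceeded all of them. The members' median difference was -0.73, against 0.01 for all genes.

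**Figure D2:**
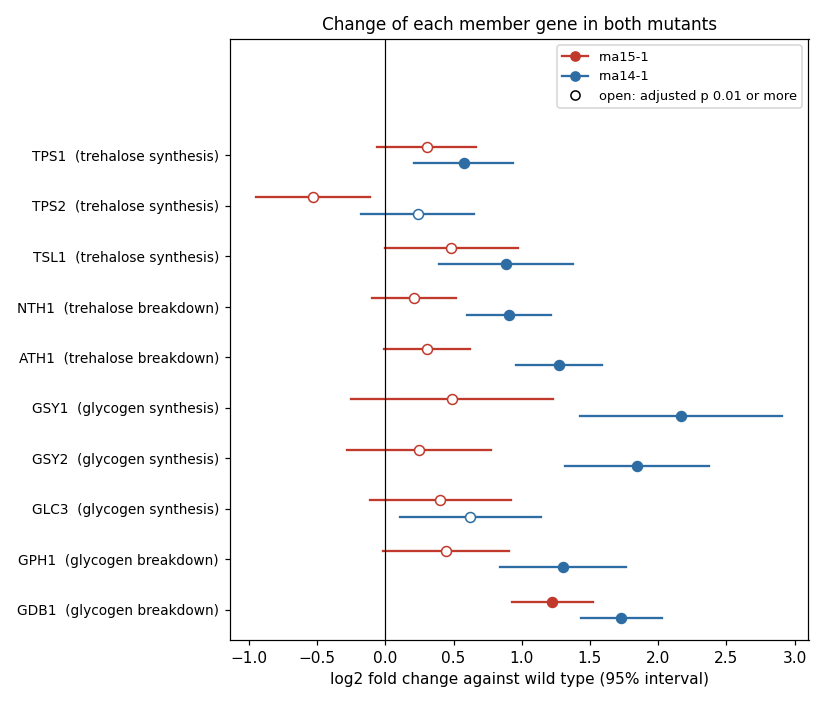
Log2 fold change of each member against wild type (horizontal axis, points with 95% confidence intervals) in *rna15-1* and in *rna14-1*. All 10 *rna14-1* points lie to the right of 0, and *GDB1* is the 1 member whose filled point, for an adjusted p under 0.01, appears for both mutants.

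The wild-type arrays were not alike in these genes. In 9 of the 10 members, wild-type replicates 1 and 2 were both above replicates 3 to 5, as in 27.9% of all genes, and in none were both below, as in 29.4%. The exception was *ATH1*, whose replicate 2 lay at 8.52, below replicate 3 at 8.55. The difference between these subsets was 1.18 for *GSY1*, from 0.48 to 0.74 for *TPS1*, *TPS2*, *TSL1*, *NTH1*, *GSY2* and *GLC3*, and from 0.20 to 0.30 for *ATH1*, *GPH1* and *GDB1*. The median over members was 0.55, against -0.01 for all genes and 0.22 for 16 general stress genes.

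The choice of wild-type arrays set which members passed. Against replicates 1 and 2 alone, 6 members rose in *rna14-1*, and against replicates 3 to 5 alone 9 did, where 27.9% and 31.8% of all genes rose. The 6 were *NTH1*, *ATH1*, *GSY1*, *GSY2*, *GPH1* and *GDB1*, while *TPS1* was at 0.22 and *TSL1* at 0.44 (limma adjusted p = 0.1 and 0.069). With replicates 3 to 5, *TPS2* was added (0.50, limma adjusted p = 0.0032) and *GSY1* reached 2.64. In *rna15-1*, *GDB1* alone rose against replicates 1 and 2 (1.06, limma adjusted p = 0.0013), and *TPS2* fell by 0.93 (limma adjusted p = 0.00098), where 23.1% of all genes rose and 19.1% fell. Against replicates 3 to 5, *TPS1*, *TSL1*, *NTH1*, *GSY1* and *GDB1* rose in *rna15-1*, by 0.40 to 1.33, as did 26.8% of all genes. *GDB1* thus rose in both mutants against either subset.

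**Figure D3:**
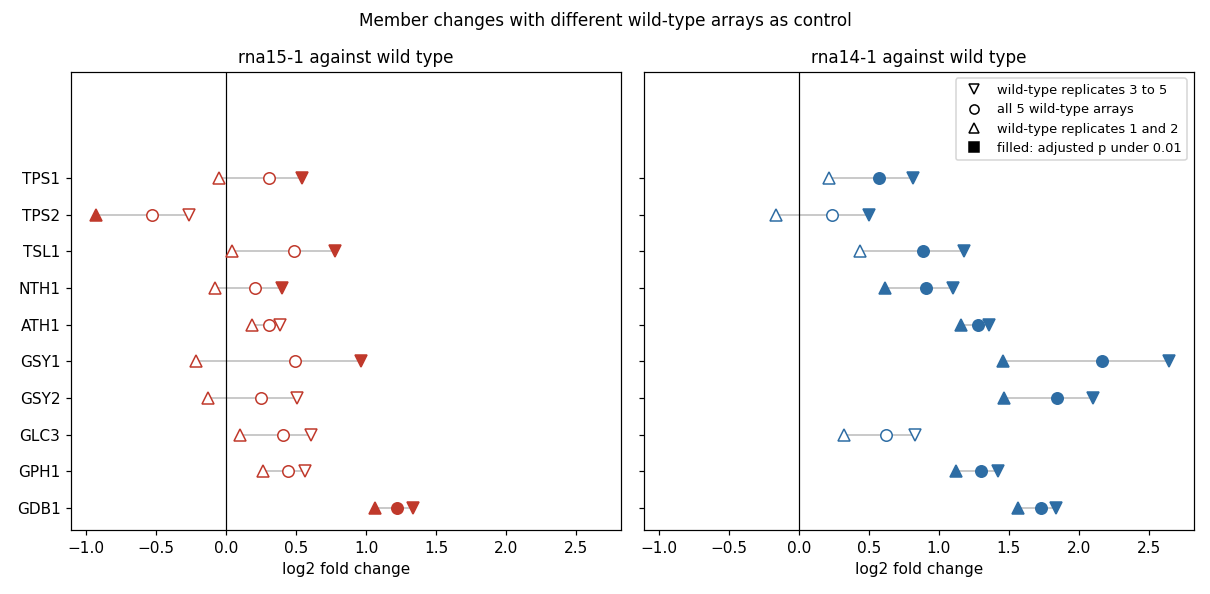
Log2 fold change of each member in *rna15-1* (left) and *rna14-1* (right) against wild-type replicates 1 and 2, all 5 wild-type arrays, or replicates 3 to 5, with filled symbols for an adjusted p under 0.01. *GSY1* in *rna14-1* moves between 1.46 and 2.64 with the choice, and in *rna15-1* between -0.22 and 0.96.

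Replicate 3 of *rna15-1* stood apart in the members as well. It lay above replicates 1 and 2 in 8 members, as in 43.6% of all genes, and below both in 1, *GLC3*, as in 47.3%. The difference was 0.90 for *GSY2*, 0.75 for *GSY1*, 0.61 for *ATH1*, 0.58 for *TSL1* and 0.55 for *GDB1*, and its median over members was 0.46, against -0.02 for all genes. In the 16 stress genes the median was 0.86, with all 16 higher on replicate 3. That array also correlated better with *rna14-1* (0.939 to 0.946) than replicates 1 and 2 did (0.901 to 0.918). Without it, *GDB1* still rose in *rna15-1* (1.04, limma adjusted p = 1.3e-05) and remained the only member to do so. Against *rna14-1*, 6 members then fell instead of 4, where 22.3% of all genes fell instead of 16.5%, with *TPS2* (-0.89, limma adjusted p = 0.0074) and *GDB1* (-0.69, limma adjusted p = 0.00046) added.

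*GLC3* followed another pattern. Relative to the wild-type mean it was at 0.98, 0.39 and -0.16 on the 3 *rna15-1* arrays and at 0.49, 0.54 and 0.84 in *rna14-1*. The mean of the other 9 members was 0.22, 0.17 and 0.67 on those *rna15-1* arrays, with its highest value on the array where *GLC3* was lowest. *GLC3* lies on chromosome V, of which 259 genes were tested. Their median stood at 0.72, 0.67 and 0.04 on the *rna15-1* arrays, against -0.02, 0.04 and 0.03 in *rna14-1*. Within *rna15-1*, *GLC3* was thus higher on the 2 arrays where the chromosome median was high. After the median change of the chromosome's genes was subtracted from the fitted change, *GLC3* was at -0.06 in *rna15-1*. Its difference from *rna14-1*, treated the same way, was -0.65. The part of the chromosome in the *GLC3* values was not otherwise tested. *GSY1* lies on chromosome VI, of which 117 genes had a median change of 0.16 in *rna15-1* and 0.31 in *rna14-1*.

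**Figure D4:**
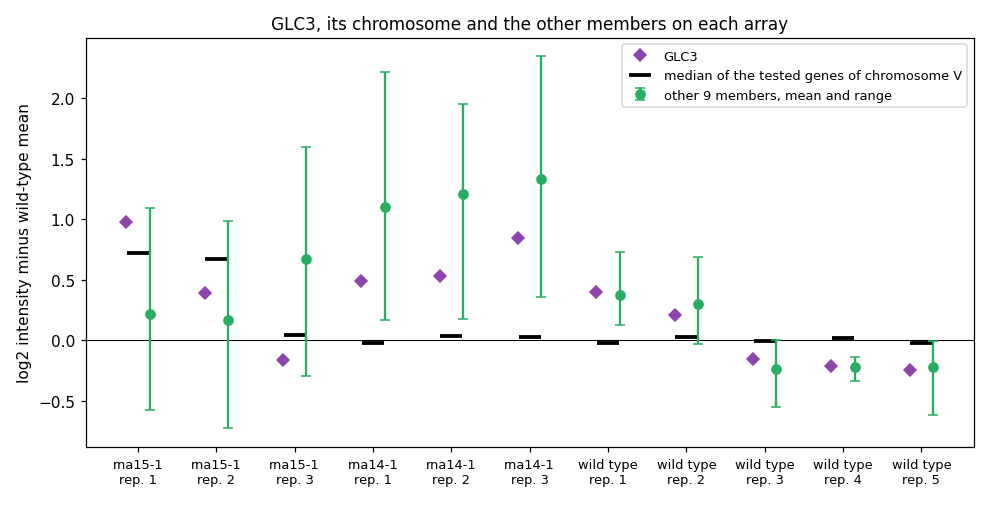
*GLC3*, the median of 259 tested genes of chromosome V and the mean of the other 9 members on each array, all as log2 difference from the wild-type mean, with bars for the range of the 9. The chromosome median is 0.72 and 0.67 on *rna15-1* replicates 1 and 2 and 0.04 on replicate 3, where *GLC3* is at -0.16.

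Members other than *GLC3* moved together from array to array. After the strain means were removed, the 36 pairs without *GLC3* had a median Pearson r of 0.79 (0.29 to 0.97) over 11 arrays, and the 9 pairs with *GLC3* a median of 0.16 (-0.32 to 0.60). These correlations are descriptions, since all genes share the arrays and their subsets. Across the 11 arrays, strain means included, *GSY1* and *NTH1* followed the mean of the other members most closely (r = 0.98 each), and *GLC3* (0.61) and *TPS2* (0.48) least. Genes outside the members most like their mean were *CYC3* (0.989), which encodes cytochrome c heme lyase, the catalase gene *CTT1* (0.985), *GAC1* (0.985), *IKS1* (0.984), *MPM1* (0.984) and *FUN19* (0.981).

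Other genes of trehalose and glycogen metabolism were described from a list of 20. In *rna14-1*, 13 rose and 3 fell, with a median change of 0.69, where 32.8% of all genes rose and 29.5% fell. In *rna15-1*, 7 rose and 4 fell, with a median of 0.20, where 28.2% of all genes rose and 24.7% fell, so these counts were near those of all genes. The 7 became 3 without any one of *rna15-1* replicate 3, *rna14-1* replicate 2 or 3, or wild-type replicate 3, 4 or 5. Against *rna14-1*, 2 rose and 10 fell in *rna15-1*, with a median of -0.56, where 16% of all genes rose and 16.5% fell. Against wild-type replicates 1 and 2 alone, 9 rose in *rna14-1* and 2 in *rna15-1*, where 27.9% and 23.1% of all genes rose.

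Among them, *SGA1*, which encodes the glucoamylase of sporulating cells, read 9.30, 9.20 and 10.77 in *rna15-1*, 11.54, 10.90 and 11.05 in *rna14-1* and 8.46 to 8.79 in wild type. It rose by 1.14 in *rna15-1* and 2.54 in *rna14-1* (limma adjusted p = 0.0076 and 2.6e-05), with replicate 3 of *rna15-1* near the *rna14-1* level. *GAC1* encodes the subunit that directs the phosphatase Glc7 to glycogen synthase. It read 7.66, 7.28 and 7.79 in *rna15-1*, 8.94, 8.85 and 9.24 in *rna14-1* and 5.97 to 7.22 in wild type, and rose by 2.47 in *rna14-1* (limma adjusted p = 2.4e-05). In *rna15-1* its 1.04 missed the threshold (limma adjusted p = 0.01). *DCS1*, whose product is an mRNA decapping scavenger and an inhibitor of Nth1, rose by 1.48 in *rna15-1* and 1.72 in *rna14-1* (limma adjusted p = 7e-06 and 1.7e-06).

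Regulators of glycogen synthase phosphorylation changed in both directions. *PHO85*, which encodes a cyclin-dependent kinase that phosphorylates Gsy2, fell by 0.62 in *rna15-1* and by 1.09 in *rna14-1* (limma adjusted p = 0.0021 and 2.9e-05). Of the 4 listed genes of its cyclins, *PCL6* fell by 1.82 in *rna14-1* (limma adjusted p = 0.00011), while *PCL7* rose by 1.08 and *PCL10* by 0.51 (limma adjusted p = 2.9e-06 and 0.0039) and *PCL8* was at 0.15 (limma adjusted p = 0.15). In *rna15-1*, *PCL10* rose by 0.45 (limma adjusted p = 0.0095), and *PCL7* and *PCL8* were at 0.23 and -0.09 (limma adjusted p = 0.055 and 0.42). On *rna15-1* arrays *PCL6* read 9.82, 9.78 and 8.38, against 9.65 to 9.95 in wild type and 7.91 to 8.05 in *rna14-1*. Replicate 3 alone lay below wild type, nearer to the *rna14-1* arrays. *GLC7* rose by 0.73 in *rna15-1* and by 0.63 in *rna14-1* (limma adjusted p = 0.00012 and 0.00025). Its *rna15-1* arrays were not alike, at 0.94, 0.82 and 0.42 above the wild-type mean. On these arrays the chromosome V median was 0.72, 0.67 and 0.04. It was not subtracted for *PCL6* or *GLC7*, and its part in their values was not tested. *GLC8*, the gene of a Glc7 activator, rose by 0.49 in *rna15-1* and by 1.59 in *rna14-1* (limma adjusted p = 0.0091 and 2.2e-06).

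Among precursor enzymes, *UGP1*, which encodes UDP-glucose pyrophosphorylase, rose by 0.50 in *rna15-1* and by 0.64 in *rna14-1* (limma adjusted p = 0.0069 and 0.0012). *PGM1*, the gene of the minor phosphoglucomutase, fell by 0.59 in *rna15-1* and by 1.43 in *rna14-1* (limma adjusted p = 0.0012 and 1.6e-06). *PGM2*, the gene of the major one, was at 0.18 in *rna15-1* and 0.50 in *rna14-1* and did not pass (limma adjusted p = 0.31 and 0.011). The glycogenin gene *GLG1*, whose product primes glycogen, showed increases of 0.76 in *rna15-1* and 1.18 in *rna14-1* (limma adjusted p = 0.0026 and 0.00011), while its paralog *GLG2* was at 0.09 in *rna15-1* and rose by 0.90 in *rna14-1* (limma adjusted p = 0.66 and 0.00056). *TPS3*, the paralog of *TSL1*, fell by 0.62 in *rna15-1* (limma adjusted p = 0.001) and was at 0.08 in *rna14-1* (limma adjusted p = 0.57). *NTH2*, the paralog of *NTH1*, fell by 0.86 in *rna15-1* (limma adjusted p = 7.2e-05) and was at -0.13 in *rna14-1* (limma adjusted p = 0.33).

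**Figure D5:**
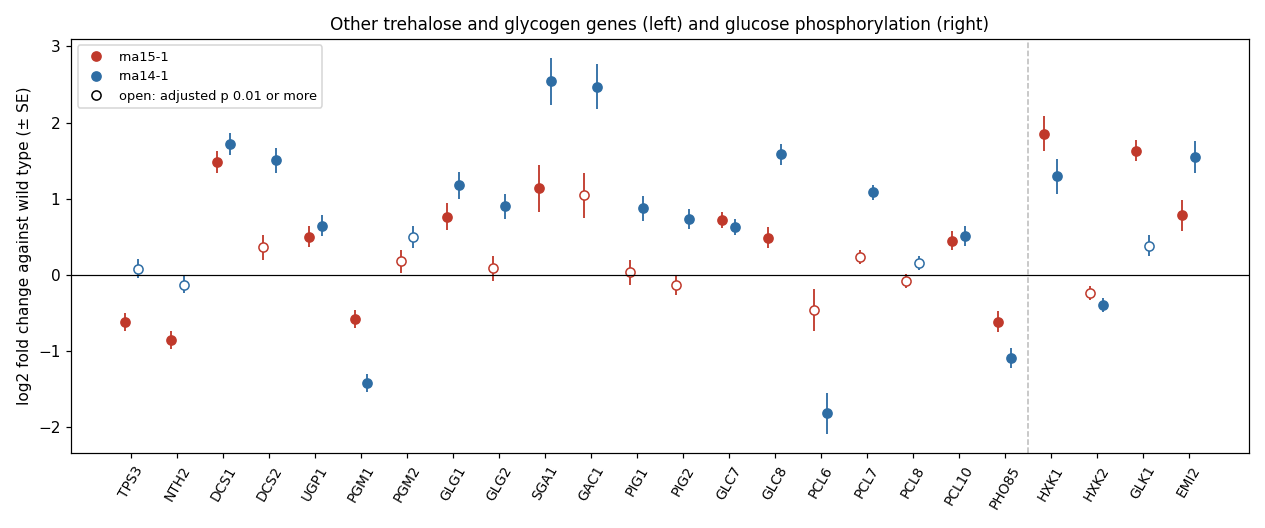
Log2 fold change against wild type of the 20 other trehalose and glycogen genes and of 4 glucose phosphorylation genes in *rna15-1* and *rna14-1*, with filled points for an adjusted p under 0.01. *SGA1* and *GAC1* have the highest values in *rna14-1* (2.54 and 2.47), and *GLK1* is higher in *rna15-1* than in *rna14-1*.

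Of 4 genes for glucose phosphorylation, the step before both pathways, *GLK1* alone passed between the mutants. *HXK1* was 1.86 higher in *rna15-1* and 1.30 higher in *rna14-1* (limma adjusted p = 4e-05 and 0.00039). *EMI2*, a paralog of the glucokinase gene, was 0.78 higher in *rna15-1* and 1.55 higher in *rna14-1* (limma adjusted p = 0.0061 and 4.6e-05). The glucokinase gene *GLK1* rose by 1.63 in *rna15-1* (limma adjusted p = 3.2e-06), was at 0.38 in *rna14-1* (limma adjusted p = 0.03), and differed between the mutants by 1.25 (limma adjusted p = 0.00014). *HXK2*, the main hexokinase gene on glucose, fell by 0.40 in *rna14-1* (limma adjusted p = 0.0022).

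Of 24 tested genes of the kinases and transcription factors that control these pathways, 3 rose and 8 fell in *rna15-1* (28.2% and 24.7% of all genes), and 11 rose and 8 fell in *rna14-1* (32.8% and 29.5% of all genes). *RIM15*, which encodes a kinase needed for entry into stationary phase, rose by 2.62 in *rna14-1* (limma adjusted p = 4e-08) and was 2.26 lower in *rna15-1* than in *rna14-1* (limma adjusted p = 4e-07). *BCY1*, the gene of the inhibitory subunit of protein kinase A, rose by 1.41 in *rna14-1* (limma adjusted p = 8.2e-07). *YAK1* rose by 1.18 in *rna14-1* (limma adjusted p = 0.00018). *YAK1*, *BCY1* and *TPK2* were 1.46, 1.14 and 0.83 lower in *rna15-1* than in *rna14-1* (limma adjusted p = 3e-04, 3.5e-05 and 0.00014). *SIP1*, which encodes a Snf1 kinase subunit, fell by 1.39 in *rna15-1* and by 1.68 in *rna14-1* (limma adjusted p = 2.1e-06 and 4.1e-07). In *rna15-1*, *HOG1*, *REG1* and *SNF1* fell by 1.05, 0.94 and 0.77 (limma adjusted p = 4.6e-06, 6.2e-05 and 5.6e-05). Of the 16 general stress genes, 8 rose and 1 fell in *rna15-1* with a median of 0.90, and 14 rose and none fell in *rna14-1* with a median of 1.73, beside the same shares of all genes.

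The probe sets read any transcript that covers them, so RNA running on from an adjacent gene cannot be told apart from a member's own mRNA. Of the 17 tested genes next to a member on the chromosome, 6 rose and 2 fell in *rna15-1*, where 28.2% of all genes rose and 24.7% fell, and 10 rose and 3 fell in *rna14-1*, where 32.8% rose and 29.5% fell. Their part in the members' values was not tested.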

How the data were processed

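The deposited values were log2 intensities made by the authors from Affymetrix yeast arrays (GCOS, RMA and limma are named in the submitters' processing notes, with versions not given in the sources used here). RMA corrects background, brings the arrays to a common distribution and summarizes probes, so changes are relative to the other genes and total RNA per cell is not measured. The labels name the medium YPAD and the methods YEPD. Of 10928 probe sets, 5498 had a *S. cerevisiae* gene name, for 5449 genes. For the 47 genes with several, the brightest was kept. Background was the 95th percentile of 1746 named probe sets of another yeast species. The number of arrays limits the precision.

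Strain means were fitted to all 11 arrays with limma 3.58.1 (R 4.3.3) and the p-values adjusted over all genes by Benjamini-Hochberg. The fit was tested on simulated data with independent noise around each gene's mean and known shifts added. The array subsets and the chromosome V shift were not simulated, so that test does not cover them. Intervals are 95% confidence intervals of the fit. Genes outside the members were named by the size of their change among those that passed (up to 4 per list) or by likeness to the members' mean (6 genes). *PHO85*, *GLC7*, *GLC8*, *UGP1*, *PGM1*, *PGM2*, *GLG2*, *TPS3*, *PCL7*, *PCL8* and *PCL10*, and the second-mutant values of other genes, were added after their values were seen. The members and lists were chosen with earlier results of these data known. The alternatives were other wild-type sets, leaving out each array, quantile or median scaling, other thresholds, subtraction of chromosome medians and a replicate block.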

Additional observations from a re-analysis of the deposited data

Results flagged for a closer look

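The mutants differed in 4 members by the limma test of *rna15-1* against *rna14-1* itself. The difference in log2 change was -0.70 for *NTH1*, -0.97 for *ATH1*, -1.68 for *GSY1* and -1.60 for *GSY2* (limma adjusted p = 0.0041, 7e-04, 0.004 and 0.00078), and for each gene all 3 *rna15-1* arrays were below all 3 *rna14-1* arrays. Without 1 array, *NTH1* and *GSY1* each lost the call in 4 of 11 fits (limma adjusted p up to 0.02 and 0.019). A single array far from the rest of its group was looked for in the 5 wild-type arrays of each of the 10 members and was found in none. In 9 members wild-type replicates 1 and 2 lay above replicates 3 to 5. Such a split can hide a single outlying array, so nothing is concluded from this search. The mutant groups of 3 arrays were not tested this way.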

How the results depend on the processing

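The clearest dependence was on the wild-type arrays and on *rna15-1* replicate 3. In *rna14-1*, the number of members called up by the methods' thresholds, 3 with all arrays, was 1 against wild-type replicates 1 to 3, 1 against replicates 1 and 2, and 5 against replicates 3 to 5. The shares of all genes called up in these fits were 8.35%, 7.38% and 8.99%, against 10.1% with all arrays. In *rna15-1*, the members that rose (1) were 5 against wild-type replicates 3 to 5, those that fell (0) were 1 against replicates 1 and 2 and 1 at an adjusted p under 0.05, and those called up (1) were 0 against replicates 1 to 3 and 0 against replicates 1 and 2. Of all genes, 26.8% rose in *rna15-1* against replicates 3 to 5 and 19.1% fell against replicates 1 and 2. The shares called up were 5.41% against replicates 1 to 3 and 5.03% against replicates 1 and 2. For *rna15-1* against *rna14-1*, 7 members fell at an adjusted p under 0.05 instead of 4. More of all genes also pass at that looser threshold in either comparison, so nothing about the members is concluded from it. With wild-type replicates 3 to 5 alone in the fit, 1 was called down, as were 2.53% of all genes. The members' median change in *rna15-1* turned to -0.0078 against wild-type replicates 1 and 2, where *TPS1* was at -0.054, *NTH1* at -0.081, *GSY1* at -0.22 and *GSY2* at -0.13, while *TPS2* in *rna14-1* was at -0.16. The cause was not tested.

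Same-numbered arrays of different strains had deviations correlated at -0.14 to 0.34. Arrays with different numbers were not compared in this way, so the values cannot decide whether the numbers pair arrays. The main fits did not pair them. With the replicate block, 1 member was called up in *rna14-1*, 0 in *rna15-1*, and 2 fell in *rna15-1* against *rna14-1*, with *NTH1* and *GSY1* lost. The shares of all genes in that fit are not given here, so nothing about the members is concluded from these counts.

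Combining a wild-type subset with the loss of *rna15-1* replicate 3 was chosen after seeing the data. With wild-type replicates 3 to 5, 6 members were called up in *rna14-1*, 6 rose and 1 fell in *rna15-1*, and against *rna14-1* 8 fell and 3 were called down (27.1% and 6.11% of all genes). With wild-type replicates 1 and 2, 0 were called up, 3 fell and 1 was called down in *rna15-1*, with a median of -0.11. The shares of all genes were 8% called up, 24.9% that fell and 5.08% called down. Against *rna14-1* 8 members fell and 3 were called down (26.9% and 6.55% of all genes, against 16.5% and 2.88% with all arrays). There *TPS1* was at -0.13, *TSL1* at -0.15, *NTH1* at -0.089, *ATH1* at -0.019, *GSY1* at -0.47 and *GSY2* at -0.43 in *rna15-1*, and *TPS2* at -0.16 in *rna14-1*. In both combinations *GLC3* was at 0.060 against *rna14-1*. With chromosome medians subtracted, *GLC3* was at -0.062 in *rna15-1*.

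Leaving out 1 array at a time, 6 to 8 members rose and 2 to 4 were called up in *rna14-1* (median 1.00 to 1.17), and 1 to 2 rose in *rna15-1* (median 0.23 to 0.45), the added one being *GPH1* without *rna14-1* replicate 1 (limma adjusted p = 0.009). Against *rna14-1*, 2 to 6 fell and 0 to 2 were called down (median -0.80 to -0.67), with 2 falling without *rna14-1* replicate 3, *rna15-1* replicate 1 or *rna15-1* replicate 2. In *rna14-1*, *TPS1* no longer passed in 8 of these 11 fits, nor did *TSL1* without *rna14-1* replicate 1 or 3. The change of *GSY2* in *rna15-1* was -0.050 to 0.40, negative without *rna15-1* replicate 3, and that of *GLC3* against *rna14-1* was -0.51 to 0.060, positive without that array. For the 20 other genes, alternatives gave 9 to 14 that rose in *rna14-1*, 2 to 8 in *rna15-1*, and 6 to 12 that fell in *rna15-1* against *rna14-1*. The shares of all genes also moved between fits, so these ranges describe only how far the counts moved.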
